A study of Homo sapiens with 16 samples.

Results

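The regions described here are 1348 focal H3K27me3 peaks that TKO cells expressing wild type NSD2 (WT) shared with 3 other forms of the cells. They were chosen by the H3K27me3 peak calls themselves: a WT peak counted if it was narrower than 30000 bp and overlapped by at least 1 bp a peak in plain TKO cells, in cells with NSD2 D1240A and in cells with NSD2 F1295A. This left 1348 of the 3450 WT peaks under 30000 bp, of 3790 WT peaks in all and of 13942 H3K27me3 peaks in the 4 lists. That these peaks were present in every form, and that they were narrow, is therefore the rule and not a result.

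The cells, labelled as plasma cells, were TKO, a line whose genotype is given as KMS-11 WHSC1(+/-). KMS-11 is a human multiple myeloma line, and WHSC1 is another name of NSD2, an H3K36 methyltransferase. All groups share this background. The forms were plain TKO, for which the labels name no expressed form, and TKO with NSD2 WT, D1240A or F1295A. The names D1240A and F1295A each denote a substitution in the protein. For every form the labels list 2 samples for H3K27me3, 1 for H3K4me3 and 1 with IgG, all by ChIPmentation, a ChIP protocol in which a transposase tags the precipitated chromatin for sequencing. Both H3K27me3 samples of a form lead to a single peak list, so no value below has a replicate check, no test between forms could be run, and the sequencing depth is unknown. The labels do not say whether a form is a single clone or how it was expressed. H3K4me3 lay at the starts of the plasma cell factors IRF4, PRDM1 and XBP1 in every form, and none of these starts was at a shared focal peak. SDC1, the gene of the surface marker CD138, had a different pattern: its start was at a shared focal peak and had H3K4me3 in WT and F1295A but not in TKO and D1240A. CD38, another marker, had neither. Of the 20 plasma cell genes checked, H3K4me3 was at the start or a record end of 13 for TKO, 15 for WT, 14 for D1240A and 15 for F1295A.

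As background, H3K27me3 is deposited by Polycomb repressive complex 2 and is read by chromobox proteins of Polycomb repressive complex 1. It is typical of genes kept off in a given cell, among them developmental regulators and genes of other lineages. In differentiated cells it may also spread as broad domains. H3K4me3 marks the promoters of active genes, and in some cells it lies beside H3K27me3 at poised promoters, which are usually rich in CpG. NSD2 makes H3K36me2, a mark known to hinder the H3K27 methyltransferase.

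Promoter sequences from RefSeq (GRCh38.p14) show how different the gene starts inside these peaks can be. Each run is the 250 bases before an annotated start, 5′ to 3′ on the gene's strand, with every CG in capitals. The first 3 genes, GCGR for the glucagon receptor, SMARCD3 for a subunit of the SWI/SNF remodelling complex and LGR6 for a receptor of R-spondins, lie in 3 of the 8 shared peaks that ranked highest over the 4 lists, and these 3 carried no H3K4me3. LHX4, a LIM homeobox factor of pituitary development, and TCHH, which encodes the hair follicle protein trichohyalin, lie in peaks that met H3K4me3 in every form. GIP, the gene of an intestinal incretin hormone, was 1 of the 5 starts with the lowest CpG content.

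GCGR, chr17:81803900-81804149, plus strand: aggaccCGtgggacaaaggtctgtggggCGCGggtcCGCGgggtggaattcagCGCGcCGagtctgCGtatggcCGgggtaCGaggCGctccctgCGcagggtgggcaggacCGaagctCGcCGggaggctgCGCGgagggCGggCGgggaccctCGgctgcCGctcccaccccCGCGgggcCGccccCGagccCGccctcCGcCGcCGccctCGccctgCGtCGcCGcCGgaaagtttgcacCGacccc
SMARCD3, chr7:151248695-151248944, minus strand: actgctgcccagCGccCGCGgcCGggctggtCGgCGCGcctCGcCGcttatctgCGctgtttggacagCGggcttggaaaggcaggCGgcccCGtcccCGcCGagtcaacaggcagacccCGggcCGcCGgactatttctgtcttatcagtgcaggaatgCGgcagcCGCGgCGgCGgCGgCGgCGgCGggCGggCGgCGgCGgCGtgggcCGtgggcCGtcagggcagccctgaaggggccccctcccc
LGR6, chr1:202193549-202193798, plus strand: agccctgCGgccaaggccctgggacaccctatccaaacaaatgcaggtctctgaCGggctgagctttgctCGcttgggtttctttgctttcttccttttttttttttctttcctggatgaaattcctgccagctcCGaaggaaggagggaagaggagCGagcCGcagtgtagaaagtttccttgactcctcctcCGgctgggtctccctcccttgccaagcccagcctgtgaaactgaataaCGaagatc
LHX4, chr1:180230014-180230263, plus strand: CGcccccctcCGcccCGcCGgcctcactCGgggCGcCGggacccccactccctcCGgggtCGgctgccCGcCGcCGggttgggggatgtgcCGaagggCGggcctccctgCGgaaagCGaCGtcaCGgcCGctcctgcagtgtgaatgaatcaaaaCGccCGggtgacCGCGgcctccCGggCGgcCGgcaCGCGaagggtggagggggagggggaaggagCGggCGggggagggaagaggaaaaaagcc
TCHH, chr1:152115445-152115694, minus strand: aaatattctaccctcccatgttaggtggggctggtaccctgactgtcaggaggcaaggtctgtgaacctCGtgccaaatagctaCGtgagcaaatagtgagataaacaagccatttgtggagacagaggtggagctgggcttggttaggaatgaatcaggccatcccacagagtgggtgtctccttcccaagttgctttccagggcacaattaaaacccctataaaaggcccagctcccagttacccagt
GIP, chr17:48968597-48968846, minus strand: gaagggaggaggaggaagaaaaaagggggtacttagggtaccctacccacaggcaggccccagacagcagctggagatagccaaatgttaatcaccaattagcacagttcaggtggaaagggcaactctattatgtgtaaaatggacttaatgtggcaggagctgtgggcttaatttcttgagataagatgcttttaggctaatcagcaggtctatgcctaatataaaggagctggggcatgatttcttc

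The printed stretch held 36 CG at GCGR, 34 at SMARCD3, 30 at LHX4, 8 at LGR6, 2 at TCHH and 0 at GIP. Dense CG was thus present both at starts without H3K4me3 in any form (GCGR, SMARCD3) and at a start with it in all forms (LHX4). At TCHH the H3K4me3 of the peak did not reach this start, and the start itself was not covered by H3K27me3 in every form. The other 5 starts were covered in all 4 lists.

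Width separated shared from other focal peaks. Of WT peaks under 5 kb, 8.63% (exact 95% interval 5.86 to 12.2) were met in all other forms, against 22.1% (20.2 to 24.2) at 5 to 10 kb, 57.8% (54.8 to 60.7) at 10 to 20 kb and 90.4% (86.8 to 93.3) at 20 to 30 kb. These intervals, Clopper-Pearson for every share, cover counting error of peaks only, and neighbouring peaks are not independent. A longer peak also has more bases with which to meet another. The form that kept a peak out of the set was mostly a mutant: TKO met 3039 of the 3450 focal WT peaks (88.1%), F1295A 1671 (48.4%) and D1240A 1532 (44.4%). The H3K27me3 lists of these forms hold 5881, 2083 and 2188 peaks, so the order follows list length only in part. Only D1240A was missing at 312 peaks, only F1295A at 179 and only TKO at 2. At the other side of the width limit, 334 of 340 WT peaks of at least 30000 bp (98.2%) were met in all forms.

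**Figure D1:**
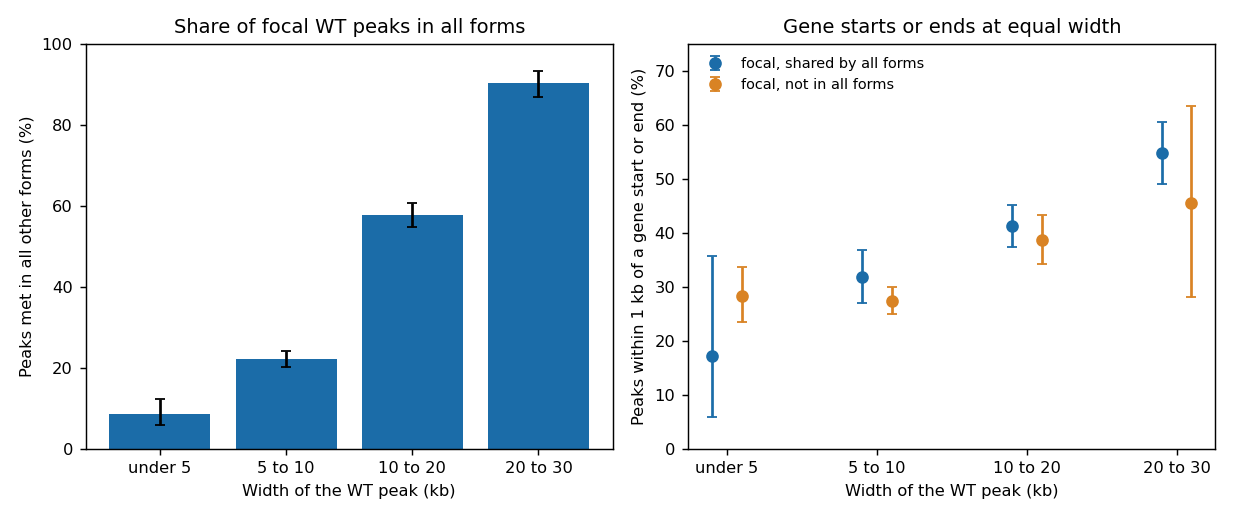
Left, the share of focal WT H3K27me3 peaks met in all other forms (%, bars) by width of the WT peak (kb), and right, the share of shared and unshared focal peaks within 1 kb of a gene start or end (%, points), all with exact 95% intervals. The left bars climb from 8.63% to 90.4%, while at equal width the intervals of the 2 sets on the right overlap.

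The widest shared focal peaks had 29989 bp (chr11:61616482-61646470, no gene), 29977 bp (within GLIS1, a Krüppel-like zinc finger gene) and 29882 bp (chr7:1583887-1613768, no gene). The narrowest peaks that met the overlap rule but not the width limit had 30073 bp (ASIC4, an acid-sensing ion channel gene), 30111 bp (CYGB, which encodes cytoglobin, and PRCD) and 30122 bp (chr16:87530547-87560668, no gene). The 1348 peaks had a median width of 13799 bp, against 7430 bp for the 2102 focal WT peaks that were not in all forms. The narrowest, at chr15:73806634-73806732, was 99.0 bp wide in WT, where TKO, D1240A and F1295A had peaks of 13.8, 12.1 and 11.9 kb. In all, the shared peaks covered 19.8 Mb, or 35.6% of the 55.7 Mb in the WT list.

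How much of each WT peak the other forms covered went well beyond the 1 bp of the rule. The median covered share was 95.7% in TKO, 95% in F1295A and 83.2% in D1240A. Coverage was under 50% at 32 peaks in TKO, 74 in F1295A and 169 in D1240A, and it was complete at 346, 347 and 148 peaks in the same order. D1240A covered less of the peak than F1295A at 920 peaks (68.2%), more at 330 and equally much at 98. Bases covered in all 4 lists came to 13.5 Mb, 68.2% of the 19.8 Mb, and 1090 of the peaks had at least 50% of their bases in this common core. Wide peaks had the same order, with medians of 93.0% in TKO, 91.7% in F1295A and 78.4% in D1240A over the 334 shared peaks of at least 30000 bp, so a lower cover in D1240A was not particular to the focal ones.

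The lower cover in D1240A went with shorter peaks. For each WT peak the overlapping peak with the most total signal was taken as its partner. Partner width over WT width had a median of 0.999 in TKO and in F1295A, and of 0.853 in D1240A. The partner was narrower than the WT peak at 51.1% of the peaks in TKO, 51.0% in F1295A and 76.0% in D1240A, and narrower in D1240A than in F1295A at 77.9%. Both ends of the covered stretch lay inside the WT peak at 49.2% of the peaks in D1240A, against 29.1% in TKO and 25.8% in F1295A. The D1240A and F1295A lists themselves were of similar length, with 2188 and 2083 peaks.

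**Figure D2:**
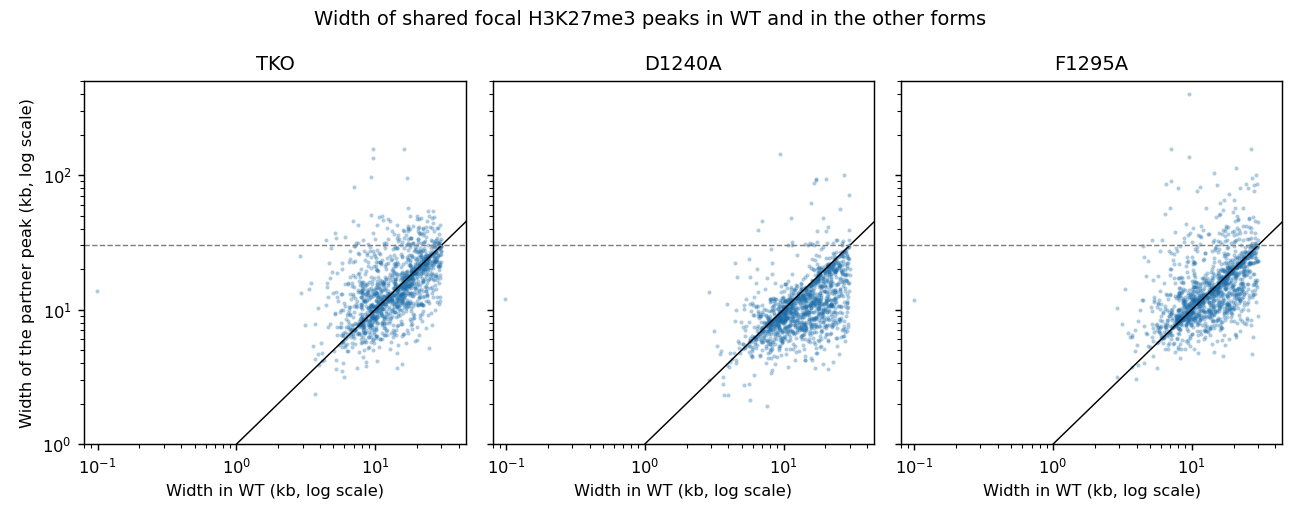
Width of the partner peak in TKO, D1240A and F1295A (kb, log scale) against width in WT (kb, log scale), 1 point for each of the 1348 shared focal peaks, with equal width as a line and 30 kb dashed. In D1240A 76.0% of points lie under the line of equal width, against 51.1% in TKO and 51.0% in F1295A, and 33 to 116 partners per form reach 30 kb.

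Narrow in WT did not always mean narrow elsewhere. The partner had at least 30000 bp at 116 peaks in TKO, 110 in F1295A and 33 in D1240A, and 1166 of the 1348 (86.5%) were under 30000 bp in every form. The peak inside PRDM16, a zinc finger regulator of brown fat and blood stem cells, was 27.3 kb wide in WT, 32.9 kb in TKO, 94.7 kb in F1295A and 100 kb in D1240A. At LGR6 the width was 28.2 kb in WT and in TKO, 27.3 kb in D1240A and 76.5 kb in F1295A. At NPTX1, which encodes a secreted neuronal pentraxin, it was 20.5 kb in WT, 20.6 kb in TKO, 20.1 kb in D1240A and 45.4 kb in F1295A. UNC5A, a netrin receptor gene, had 15.6 kb in WT and D1240A, 15.5 kb in TKO and 50.1 kb in F1295A. At the last 3 genes only the F1295A partner passed 30 kb, whereas at PRDM16 the partners in TKO, D1240A and F1295A all did.

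At other genes the peaks of a mutant covered only a small part of the WT peak. HSPG2, which encodes the basement membrane proteoglycan perlecan, lay at a WT peak of 27.3 kb with partners of 14.1 kb in TKO, 8.29 kb in D1240A and 4.67 kb in F1295A, covering 66.3%, 30.4% and 17.1% of it. BCAM, a laminin-binding adhesion molecule, had 27.7 kb in WT, 11.4 kb in TKO, 12.9 kb in F1295A and 6.79 kb in D1240A for the strongest overlapping peak, while all overlapping peaks covered 72.9%, 75% and 24.6% of it in that order. WNT6, a secreted WNT ligand, had 25.7 kb in WT and 32.5 kb in TKO, but 19.0 kb in F1295A and 9.62 kb in D1240A, and TKO, F1295A and D1240A covered 98.8%, 74.0% and 37.5% of the WT peak. D1240A covered the least at BCAM and WNT6, and F1295A at HSPG2.

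The peaks with the smallest cover differed from form to form. The lowest in TKO was at CES3, a carboxylesterase gene, with 25.4% covered in TKO against 83.4% in D1240A and 87.4% in F1295A. The lowest in D1240A was at chr19:47945880-47953466, away from genes, with 3.20% covered in D1240A, 64.3% in F1295A and the whole peak in TKO. The lowest in F1295A lay inside GIP, at chr17:48958872-48963949, with 0.748% covered in F1295A, 90.4% in D1240A and 97.1% in TKO. The GIP start printed above lies in another, neighbouring shared peak. At MAP6, a gene of a microtubule-stabilising protein, both mutants covered little (14.0% in D1240A and 13.9% in F1295A) and TKO 87.2%.

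At 9 peaks the rule was met although no base was common to all 4 lists. They included a peak in IL2RA, the interleukin 2 receptor alpha chain of activated T cells, which TKO covered wholly and D1240A and F1295A at 21.8% and 22.1%. ARRB1, which encodes beta-arrestin, had 44.4% and 54.7% in D1240A and F1295A and full cover in TKO. ADAMTS7, a metalloprotease gene, had 72.2% in TKO, 60.2% in D1240A and 1.72% in F1295A. The others were at GIP, MRC2, TNS1 and STMN3 and at 2 places without a protein-coding gene. At these 9, sharing by 1 bp does not mean that the same bases are marked.

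Signal was used only to rank a peak within its own list, as the percent of the list's H3K27me3 peaks with an equal or lower total. The shared focal peaks had a median percentile of 70.5 in WT, their partners 79.4 in TKO, 49.7 in F1295A and 44.5 in D1240A. Unshared focal WT peaks had 29.5. The lists differ in length, so ranks do not compare signal between forms, and total signal follows width, which the rule used. Of the 2083 to 5881 peaks per list, 23.9% of TKO peaks, 63.1% of F1295A peaks and 63.7% of D1240A peaks touched a shared focal peak.

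Some genes ranked high in every list. Ordered by the lowest of the 4 percentiles, the top was PRDM16 (chr1:3351758-3379034), at 99.2 for TKO, 96.3 for WT, 98.8 for D1240A and 99.2 for F1295A. COL18A1 (chr21:45405811-45435223), the collagen from which endostatin is cut, stood at 97.0, 94.6, 92.4 and 90.7 in the same order. GCGR (chr17:81799119-81820371) stood at 96.5, 97.2, 93.1 and 90.5. A peak over GLI1, a Hedgehog pathway transcription factor, and its neighbour ARHGAP9 stood at 95.9, 96.5, 90.2 and 90.1. NPTX1, SMARCD3, COL5A1 (a fibrillar collagen chain) and LGR6 followed, all at or above 88.5 in each list. Of these 8 peaks only that of GLI1 and ARHGAP9 met H3K4me3.

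At the low end, a peak inside PCBP3, an RNA-binding protein gene, stood at 76.1 for TKO, 32.7 for WT, 0.229 for D1240A and 33.5 for F1295A. The 99.0 bp peak on chromosome 15 stood at 0.0528 in WT and at 65.9 in TKO. A peak at chr1:159843035-159847848 was among the weakest in WT (0.290) and D1240A (0.868), yet at 86.1 in TKO and 74.7 in F1295A. The lowest ranks were thus set by WT or by D1240A and not by a form that was low throughout.

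Protein-coding gene starts lay at many of these peaks. A start, or a record end where the reference gives no strand, was within 1 kb of 556 of the 1348 (41.2%, 38.6 to 43.9), against 34.6% of all focal WT peaks, 30.3% of the unshared and 66.5% of peaks of at least 30000 bp. A further 26.5% lay inside a gene record and 32.3% elsewhere. Counting only starts with a known strand gave 28.8% against 21.3% of the unshared. Within each width class the intervals of the sets overlapped: under 5 kb the shares were 17.2% (5.85 to 35.8) shared and 28.3% (23.4 to 33.7) unshared, at 5 to 10 kb 31.8% (27.1 to 36.8) shared and 27.4% (24.9 to 29.9) unshared, at 10 to 20 kb 41.2% (37.3 to 45.1) and 38.7% (34.2 to 43.3), and at 20 to 30 kb 54.8% (49.1 to 60.5) and 45.5% (28.1 to 63.6). The nearest WT H3K27me3 peak was 8706 bp away at the median, against 14859 bp for unshared peaks.

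Among the shared focal peaks, those with more WT signal lay at genes more often. With 4 equal groups of 337 by highest signal, 25.8% (21.2 to 30.8) of the weakest group, 34.1% of the next, 48.1% of the third and 57.0% (51.5 to 62.3) of the strongest were within 1 kb of a gene start or end. By mean signal per base, the shares were 27%, 35.0%, 45.7% and 57.3%. The median width of the groups by mean signal went from 12216 to 15102 bp, so the stronger peaks were also somewhat wider. Where a start with a known strand lay inside a peak (397 genes), it sat a median of 3319 bp from the nearer border, and it was covered in TKO for 88.7% of the genes, in F1295A for 86.9%, in D1240A for 84.4% and in all forms for 306 (77.1%).

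A gene counted as at a peak if a known start, or a record end where the strand is unknown, lay within 1 kb. Such an end need not hold the promoter, and not every gene placed by an end is marked as such in the text. Genes at the shared focal peaks numbered 666 of 19974, or 3.33% of protein-coding genes. Shares of gene lists are set beside this value as a description only, since genes of a list can share a peak. None of the 40 ribosomal protein genes and none of the 30 secretory pathway genes in the lists were at such a peak. This allows shares of up to 8.81% and 11.6% (exact 95% intervals). The ribosomal list is partial: RPL38, a ribosomal protein gene outside it, was at a shared focal peak (chr17:74190670-74202950). The lists with the largest shares were markers of T, NK and myeloid cells (6 of 33, 18.2%), ion channels (11 of 64, 17.2%), signalling genes of the TGF-beta, BMP, FGF, Notch and Hedgehog pathways (11 of 70, 15.7%) and keratins (6 of 41, 14.6%). Unshared focal peaks only held 2, 9, 12 and 9 genes of these lists, in this order. WT peaks of at least 30000 bp held 0, 8, 3 and 4 others. Large shares of the last 3 lists were thus not particular to shared focal peaks.

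Genes of other blood lineages at these peaks were CD4, the T helper co-receptor, CD6, CD7, the myeloid factor gene CEBPE, and S100A8 and S100A9, the calprotectin subunits of neutrophils and monocytes. CD4, CD6 and CD7 were at their peaks by a record end without known strand, which need not be the start. The peak at CD4 was also within 1 kb of the known start of P3H3. This peak ranked high in all lists, at 88.8 for TKO, 89.9 for WT, 72.9 for D1240A and 70.1 for F1295A. The other forms covered 95.5% to 96.0% of the WT peak. S100A9 and S100A8 lay under 2 separate peaks of chromosome 1 at 67.3 and 44.4 in WT. The B cell list had 1 of 25 (FCER2, the low-affinity IgE receptor) and the plasma cell list 1 of 20 (SDC1). The chemokine receptors CCR7, which guides lymphocytes to lymph nodes, and CXCR1 were 2 of 22, CCR7 by a record end. None of the peaks named in this paragraph apart from SDC1 met H3K4me3 in any form.

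Signalling genes at these peaks included ligands, receptors and targets. Ligands and their antagonists were GDF6, FGF8, FGF17, GDF1, the Notch ligand gene DLL4 and CHRD, whose product chordin binds BMPs. Receptors were FGFR3 and NOTCH4, and downstream factors were GLI1, HES1 and HES5. Of these genes, GDF6, FGF8, FGF17 and GLI1 were at the peak by a record end, which need not be the start. CHRD stood at 93.6 for TKO, 91.6 for WT, 71.6 for D1240A and 80.9 for F1295A, and FGF8 at 90.4, 85.3, 67.5 and 72.9. From the WNT list, 4 of 45 genes were at such peaks, the ligands WNT3 and WNT6 and the receptors FZD4 and LGR6. Of TNF family genes, 5 of 44 were at 3 peaks, with CD40, by a record end, and LTBR under their own. TNF, LTA and LTB lay together under a WT peak of 21.7 kb that D1240A covered at 30.6%, F1295A at 47.4% and TKO at 62.3%.

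Adhesion, the subject of the series title, appeared in several lists. Cadherins numbered 5 of 50 (PCDH1, CDH22, CDH23, CDH15 and CDH16), integrins 3 of 26 (ITGB4, ITGA7 and ITGA3), immunoglobulin-type adhesion molecules 5 of 44 (CEACAM5, CEACAM6, NECTIN4, BCAM and CADM4), matrix genes 4 of 62 (COL18A1, AGRN, COL7A1 and HSPG2) and guidance receptors and ligands 7 of 62 (EFNA2, UNC5B, SEMA6C, UNC5A, EPHB4, PLXNA2 and SEMA3B). Of these genes, CDH22, CDH15, CDH16, ITGB4, ITGA7, ITGA3, AGRN and UNC5B were at the peak by a record end, which need not be the start. The ITGA7 peak was also within 1 kb of the known start of TMT1B. PCDH1, a protocadherin of epithelia, stood at 87.1 for TKO, 83.6 for WT, 63.8 for D1240A and 68.2 for F1295A. ITGB4, the hemidesmosome integrin that binds laminin, stood at 70.2, 80.0, 45.4 and 30.3. EFNA2, an ephrin, stood at 88.6, 93.2, 80.3 and 76.8. UNC5B, a netrin receptor, stood at 90.0, 88.7, 74.4 and 72.9. By the rule, each of these peaks was met by H3K27me3 in every form by at least 1 bp, so presence in every form is not a result at these genes. The covered share could still differ between forms, as given above for HSPG2 and BCAM.

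Developmental factors, classical targets of Polycomb, were found at shared focal, unshared focal and wide WT peaks, and most of those listed were at none of these. Over all protein-coding genes, 683 were at unshared focal peaks only, 666 were at shared focal peaks and 332 others at WT peaks of at least 30000 bp. Of 39 HOX genes, 4 were at shared focal peaks (HOXB6, HOXB8, HOXB9 and HOXC13) and 8 others at such wide peaks. Of 82 other homeobox and PAX genes the counts were 6 (EMX1, VAX2, PAX4, LHX5, LHX4 and PITX3) and 7, and of 68 T-box, SOX, GATA, FOX and bHLH genes 2 (NEUROD2 and TBX1) and 3. Unshared focal peaks only held 1 HOX gene, 6 homeobox and PAX genes and 3 genes of the last list. The shares at shared focal peaks were 10.3%, 7.32% and 2.94% in this order, against 3.33% over all protein-coding genes. The 4 HOX genes, EMX1, VAX2 and LHX5 were at these peaks by a record end, which need not be the start. HOXB8 and HOXB9 shared a WT peak of 17.3 kb (chr17:48612461-48629796), at 94.5 for TKO, 85.9 for WT, 85.7 for D1240A and 85.2 for F1295A. Outside WT these ranks belong to wider partners, of 31.3 kb in TKO, 32.0 kb in D1240A and 35.4 kb in F1295A. The 6 keratin genes lay at 4 peaks, KRT16 with KRT17 and KRT83 with KRT86 under a shared peak, and KRT71 and KRT85 each under its own. KRT16, KRT17, KRT83 and KRT86 were there by a record end. Ion channels at these peaks included CACNA1B and CACNA1I, neuronal calcium channels, and KCNH2, which carries a repolarising potassium current in heart.

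**Figure D3:**
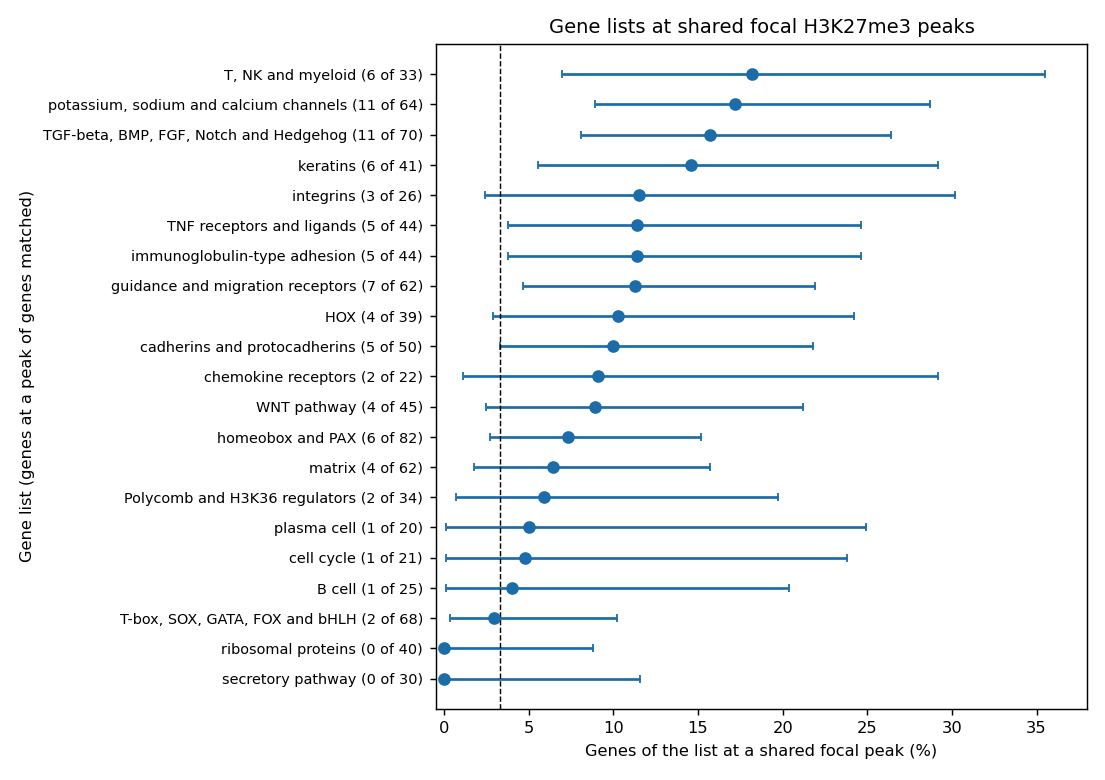
Share of the genes of each list that lie at a shared focal H3K27me3 peak (%, points with exact 95% intervals), with the share over all protein-coding genes, 3.33%, as a dashed line. The listed ribosomal protein and secretory pathway genes are at 0, and markers of T, NK and myeloid cells have the largest share at 18.2%.

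H3K4me3 was a readout the rule did not use, and it was rare at these peaks. It overlapped by at least 1 bp 27 of the 1348 in TKO (2.00%, 1.32 to 2.90), 50 in WT (3.71%, 2.77 to 4.86), 51 in D1240A (3.78%, 2.83 to 4.94) and 63 in F1295A (4.67%, 3.61 to 5.94). Over all 3450 focal WT peaks the shares were 2.35%, 3.94%, 3.57% and 4.72%, so those of the shared peaks were near the background. At gene starts or ends the shared peaks were lower than the unshared in every form, with overlapping intervals. The shares there were 4.32% and 7.38% in TKO, 8.09% and 11.8% in WT, 8.09% and 9.42% in D1240A, and 9.53% and 13.7% in F1295A. Away from them they were 0.379% and 0.478%, 0.631% and 0.751%, 0.758% and 0.819%, and 1.26% and 0.887% in the same order. H3K4me3 in all forms was at 26 of the 1348 (1.93%) against 2.20% of all focal peaks. Of the 1348, 1278 had none in any form, and for those without it in WT the nearest WT H3K4me3 peak was 67364 bp away at the median. Where the marks met, the median overlap in WT was 2334 bp, or 17.1% of the focal peak. Gene starts or ends within 1 kb were at 59 of the 70 peaks with H3K4me3 in any form (84.3%), near the share over all focal WT peaks (152 of 180, 84.4%).

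**Figure D4:**
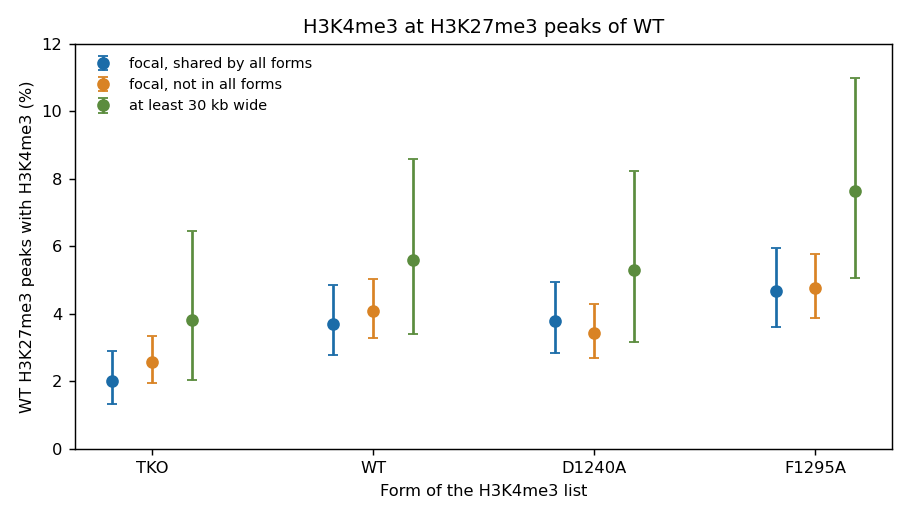
Share of WT H3K27me3 peaks that overlap H3K4me3 (%, points with exact 95% intervals) in each form's H3K4me3 list, for shared focal peaks, unshared focal peaks and peaks of at least 30 kb. Shared focal peaks sit at 2.00% to 4.67%, within the intervals of the unshared ones in every form.

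Some WT peaks met H3K4me3 in every form. The lengths given here and below are H3K4me3 bases of each form inside the WT H3K27me3 peak. In the other forms these bases need not carry H3K27me3. MUC1, a cell surface mucin (chr1:155193027-155206446), had 3.27 kb of H3K4me3 inside its peak for TKO, 5.28 kb for WT, 5.41 kb for D1240A and 9.46 kb for F1295A. The peak of GLI1 and ARHGAP9 (chr12:57459037-57485254) had 4.49, 5.25, 4.90 and 7.51 kb in the same order. DUSP4, a phosphatase that acts on MAP kinases, had 3.70, 5.14, 4.96 and 5.96 kb, and ATF3, a stress-induced transcription factor, 3.97, 4.85, 5.07 and 5.29 kb. LHX4 had 3.8, 4.17, 6.20 and 5.38 kb, and ITGA3, the laminin-binding integrin subunit, 2.44, 2.84, 3.93 and 3.67 kb. In these 6 TKO had the fewest H3K4me3 bases inside the WT peak. This did not hold at every peak: a peak at chr1:181103601-181114151, away from genes, had 2.47, 2.87, 2.45 and 3.12 kb in the same order. The chromobox genes CBX8 and CBX2, neighbours on chromosome 17 whose products read H3K27me3, were at 2 such peaks, each by a record end. CBX8 had 1.73 kb for TKO, 1.69 kb for WT, 1.90 kb for D1240A and 13.0 kb for F1295A. CBX2 had 1.15, 0.919, 1.14 and 1.66 kb, so at both genes WT had the fewest.

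At 44 of the 1348 peaks H3K4me3 was present in some forms only, and TKO lacked it at 43 of these (97.7%), against 99 of 104 (95.2%) over all focal WT peaks, so this too was near the background. The largest group, 14 peaks, had it in WT, D1240A and F1295A. Among them were SEMA6C, a transmembrane semaphorin (4.66 kb in WT, 6.62 kb in D1240A and 5.70 kb in F1295A), ERBB3, a neuregulin receptor (4.15, 2.82 and 3.18 kb), PMEPA1, a TGF-beta target that restrains SMAD signalling (2.26, 2.33 and 3.12 kb), and ACSF3, where the WT overlap was 0.0140 kb. FZD4 had the same pattern with 3.82, 3.06 and 3.37 kb. The single peak with H3K4me3 in TKO but not in all forms was inside SKIDA1, with 2.34 kb in TKO, none in WT, 3.09 kb in D1240A and 3.85 kb in F1295A. The TKO H3K4me3 list is the shortest, with 7396 peaks against 7712 to 8239. Taking the 7396 strongest peaks of each list kept the shares at 2.00% for TKO, 3.12% for WT, 3.71% for D1240A and 4.01% for F1295A. TKO thus had the lowest share at equal list length as well, with 1 library per form.

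WT and F1295A, but neither TKO nor D1240A, had H3K4me3 at 6 peaks. FGFR3, the growth factor receptor gene activated by the t(4;14) translocation of myeloma (chr4:1782274-1804130), had 6.43 kb in WT and 11.2 kb in F1295A, and its H3K27me3 peak was 21.9 kb wide in WT, 9.22 kb in TKO, 11 kb in D1240A and 11.3 kb in F1295A. The other forms thus covered 42.2% to 50.3% of the WT peak there, which is low for the set. SDC1, which encodes CD138 (chr2:20218309-20226612), had 2.80 kb in WT and 3.20 kb in F1295A, with an H3K27me3 peak of 8.30 kb in WT, 7.63 kb in TKO, 8.28 kb in D1240A and 13.3 kb in F1295A. TENM4, a teneurin adhesion protein of neurons, had 5.08 and 4.74 kb, and HRH3, the histamine H3 receptor, a shorter overlap of 1.0 kb in both. At SDC1 and TENM4 the H3K27me3 of the other forms covered 91.9% or more of the WT peak, so there H3K4me3 calls differed while H3K27me3 cover of the WT peak hardly did. This cover leaves out bases beyond the WT peak, and at SDC1 the F1295A peak ran past it at both ends.

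Other patterns were rarer. D1240A and F1295A alone had H3K4me3 at 5 peaks, among them DLL4 (5.57 and 6.22 kb), KCNH2 with NOS3, the endothelial nitric oxide synthase gene (4.66 and 4.75 kb), and SP7, the osteoblast factor osterix, with 0.0490 kb in D1240A and 4.63 kb in F1295A. F1295A alone had it at 11, such as the peak over LGI3, SFTPC and BMP1 with 4.74 kb, D1240A alone at 3 with at most 0.614 kb each in those named (RPL38, CA14 and SPOCD1), and WT alone at 2. Those 2 were MC1R with TUBB3 (5.26 kb), for the melanocortin receptor and a neuronal tubulin, and APOBR with IL27 (1.27 kb). WT and D1240A, but not F1295A, had it at AGRN, which encodes the basement membrane protein agrin (3.25 and 7.24 kb), and at a second peak by ERBB3 (1.73 and 0.511 kb). With 1 library per form, none of these presences and absences has a replicate check.

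The CpG content of the promoters differed with H3K4me3. Observed over expected CpG was computed over 300 bases, from 250 before to 50 after each start. Over 515 starts of 397 genes inside shared focal peaks the median was 0.51 (95% interval from order statistics 0.44 to 0.60). It was 0.74 over all 22132 starts, 0.58 (0.51 to 0.64) in unshared focal peaks and 0.50 in peaks of at least 30000 bp. At starts with WT H3K4me3 and no WT H3K27me3 it was 0.87. Starts with neither mark in WT had 0.45. Within the shared peaks, 46 starts that carried H3K4me3 in any form had a median of 0.78 (0.70 to 0.82) and 469 without it 0.46 (0.40 to 0.55). A value of at least 0.6 was reached by 236 of the 515 (45.8%, 41.5 to 50.2) and by 62.2% of all starts. Over the same 300 bases GCGR had 1.05, SMARCD3 0.90, LHX4 0.81, LGR6 0.49, TCHH 0.16 and GIP 0.00, so the genes printed above span the range. Starts of 1 gene can overlap and are not independent.

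**Figure D5:**
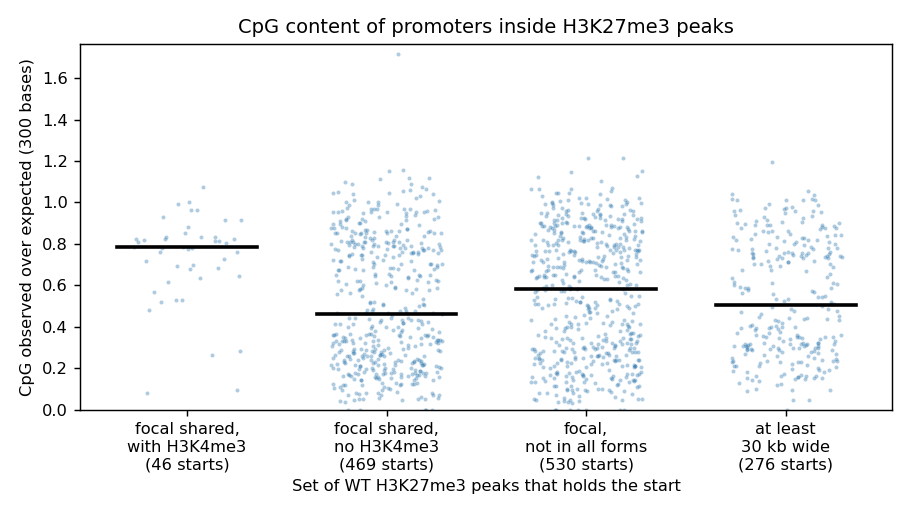
Observed over expected CpG in 300 bases around each gene start (points) inside shared focal peaks with and without H3K4me3, unshared focal peaks and peaks of at least 30 kb, with the median as a bar. The 46 starts with H3K4me3 have a median of 0.78 and the 469 without it 0.46, with values spread from near 0 to above 1.

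A few short motifs were counted in the same 300 bases, on both strands. The E-box CACCTG was in 28.2% of promoters inside shared focal peaks and in 4422 of all 22132, but also in 28.7% of those in unshared and 27.5% of those in wide peaks. TATAAA was in 8.35% against 9.46% of all, GGGCGG in 57.9% against 56.3% and CGCGCG in 20.6% against 21.4%. GGGCGG and CGCGCG both hold CG. A match is a description of letters and not of a bound site.

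Hairpins of microRNAs inside the shared focal peaks numbered 33 of the 1562 in the reference (2.11%), with 24 in unshared focal peaks and 42 in wide ones. A peak of 23351 bp on chromosome 1 (chr1:1164434-1187784) held MIR200B and MIR429, microRNAs of the miR-200 family that are known to keep cells epithelial by targeting ZEB factors. This pair was picked after the hairpins had been listed. Their mature forms, with the seed (bases 2 to 8) in capitals, are shown because they carry the same seed, AAUACUG.

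hsa-miR-200b-3p: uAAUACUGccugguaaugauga
hsa-miR-429: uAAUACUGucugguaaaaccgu

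The peak stood at 84.8 for TKO, 95.2 for WT, 87.1 for D1240A and 85.1 for F1295A, had no H3K4me3 in any form, and all 95 and 83 bases of the hairpins were covered by H3K27me3 in each list. Others were MIR135B, MIR149, MIR129-2 and MIR199B.

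The shared focal peaks were spread unevenly over the chromosomes, much as the focal peaks they came from. Chromosome 1 held 236 of the 1348 (17.5%), with 15.4% of focal WT peaks and 10.3% of protein-coding genes, and 45 and 46 of them lay in the stretches of 0 to 10 Mb and 200 to 210 Mb. Chromosome 13 held 2, chromosome 18 held 4 and X held 6 (0.445%, with 4.25% of genes). The share of focal peaks met in all forms was 50.9% (42.9 to 58.9) on chromosome 10, 44.4% on chromosome 1 and 27.3% (10.7 to 50.2) on X.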

How the data were processed

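ChIPmentation peak lists of H3K27me3 and H3K4me3 from TKO cells in 4 forms were compared. Cells were fixed in formaldehyde at 0.8% and quenched with glycine at 0.125 mol/L, per the labels' protocols. The submitters' processing notes name the build GRCh38, SEACR 1.3, Bowtie2 2.4.5, Trimmomatic 0.36 and FastQC 0.11.4. Calling mode, control and threshold are not given in the sources at hand. Each row of the deposited lists is a peak with its total signal and its highest signal, both coverage values from the authors' peak caller. Both H3K27me3 samples of a form share a list, and how they were combined is not given. The highest signal moves in steps of 0.5. The IgG samples were not analysed here.

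Overlaps of at least 1 bp, covered shares, ranks within a list and exact (Clopper-Pearson) 95% intervals of shares came from scripts run under Python 3.11.15 (pandas 2.3.3, numpy 2.4.6, scipy 1.17.1, matplotlib 3.10.9), and the overlap steps were tested on simulated data. The 95% intervals of medians came from order statistics. Genes and promoters came from RefSeq (GRCh38.p14): 19974 protein-coding genes on chromosomes 1 to 22 and X, of which 15812 have a start with strand. Both record ends were used for the rest, and for these genes the end at a peak need not hold the promoter. Of 924 entries in 21 gene lists, 922 matched.

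The peaks and the lists were chosen with earlier results of these data known. Peaks were named by rule: the 3 on each side of the width limit, the 8 with the highest and the 4 with the lowest value of their lowest percentile over the 4 lists, up to 4 genes per list in that order, up to 8 with H3K4me3 in all forms, up to 4 per other H3K4me3 pattern and up to 4 with no H3K4me3 at a gene start, and the 3 with the smallest cover per form. Genes of a list beyond the fourth, the peaks without a common base, FZD4 under its H3K4me3 pattern and the microRNAs were added after their values were seen. No test between forms was possible, and no p-values are given.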

Additional observations from a re-analysis of the deposited data

How the results depend on the processing

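The number of shared focal peaks, 1348, stayed within 1.5 times (963 to 1769) for 50% cover of the WT peak, a limit of 20000 bp, a width limit in every form, joining peaks within 5 kb, equal peak numbers, and a start from any other form's list. It was 877 with a reciprocal overlap of 50% and 477 with the stronger 50% of each list. The share at a gene start or end was 37.8% with a window of 0 bp, 44.9% with 2500 bp and 28.8% with strand-known starts only, an alternative added after seeing the data. H3K4me3 with at least 50% of its peak inside was at 1.11% in TKO, 2.08% in WT, 2.15% in D1240A, 2.74% in F1295A and 0.593% in all forms, and in the common core at 1.11%, 2.52%, 2.60% and 3.34%, with TKO lowest and F1295A highest each time. Equal H3K4me3 peak numbers left each share within its interval. With peaks within 5 kb joined, the median cover was 97.3% in TKO, 81.3% in D1240A and 92.9% in F1295A. The median percentile was 74.2 in TKO and 69.0 in WT by mean signal, and 68.6 in WT by highest signal. Other alternatives stayed within the interval. Leaving out a replicate could not be run, since the lists hold no value per replicate. No paired analysis was possible because both H3K27me3 samples of a form share a single list. The lists give no depth, so the limit it sets on absent calls is unknown.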

Other observations

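In the H3K27me3 lists, total signal divided by peak width was above the highest signal of the same peak at 96 of 5881 peaks in TKO, 11 of 3790 in WT, 91 of 2188 in D1240A and 73 of 2083 in F1295A, and at no H3K4me3 peak of any form. A sum of coverage over a peak cannot do so, so at these peaks the 2 deposited columns do not describe the same curve. Of the 1348 shared focal peaks, 59 had such a value in at least 1 form. The named ones were chr11:61616482-61646470, the widest of the set, and the HOXC13 peak, where the F1295A partner stood at 98.4 by total signal against 65.6 in TKO, 56.6 in WT and 9.55 in D1240A, and its percentile is therefore not used in the text above.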
